A study of Arabidopsis thaliana with 12 samples.

Results

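The gmi1-1 response to ionizing radiation was measured as transcript levels in whole Arabidopsis thaliana seedlings on 6 of the 12 expression arrays of the study, namely 3 labelled gmi1-1 gamma-irradiated and 3 labelled gmi1-1 untreated. They were chosen by genotype and treatment alone. The gmi1-1 line (SALK_036931) has a T-DNA in the gene GMI1 (AT5G24280) in the Col-0 ecotype, and it is the single mutant allele of the study. Seedlings were 5 days old and grown in continuous light, and the irradiated groups were exposed to gamma rays of a cobalt source (100 Gy) and frozen 1.5 h later. The other 6 arrays hold Col-0 wild type seedlings, 3 untreated and 3 irradiated in the same way. The sample titles call the replicates biological, but nothing says which seedlings shared a plate, a day or an irradiation. P-values therefore measure the spread between these arrays. All values are log2 expression levels, differences are irradiated minus untreated on that scale, and array values are given in the order of replicate number.

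Ionizing radiation breaks both strands of DNA, and in plants the kinase ATM passes the signal to the transcription factor SOG1, which turns on repair genes and inhibitors of cyclin-dependent kinases and so holds dividing cells before mitosis. Genes of cytokinesis and mitosis, which MYB3R factors switch on in dividing cells, are known to fall in this response. GMI1 encodes a protein related to the SMC family of chromosome proteins and is itself known to be induced through ATM. The series asks whether it takes part in regulating the transcriptional response.

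GMI1 stayed near background on all 6 gmi1-1 arrays, at 1.66, 1.31 and 1.24 untreated and 1.44, 1.60 and 1.29 irradiated. The wild type arrays were at 2.53, 1.87 and 2.34 untreated and at 9.97, 10.92 and 10.46 irradiated. The low level on the gmi1-1 irradiated arrays therefore matches their genotype label. Untreated wild type arrays were near background too, so the gene's level says little about the genotype label of untreated arrays. The sources used here do not say where its probes lie relative to the T-DNA.

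The treatment labels of replicate 1 did not match the levels of damage-induced genes. SMR5 (AT1G07500), which blocks cyclin-dependent kinases, was at 2.43 and 2.86 in gmi1-1 untreated replicates 2 and 3 and at 11.03 and 11.54 in irradiated replicates 2 and 3. The library labelled gmi1-1 untreated replicate 1 had 9.78, against 9.30 in the one labelled irradiated replicate 1. Both replicate 1 libraries thus stood with the irradiated arrays, and the one labelled untreated was the higher. They were each other's closest array, and between them 125 of 9889 tested loci differed by 1 or more, 60 higher and 65 lower. The same count was 1585 in replicate 2 and 2800 in replicate 3. Over the loci that rose in replicates 2 and 3 (described next), the median difference was -0.25 in the replicate 1 pair, 2.40 in replicate 2 and 2.31 in replicate 3. For these reasons the counts over all loci are given for the arrays as labelled and for replicates 2 and 3 only. The replicate 1 libraries were left out with their values known, in part for their high damage-induced genes. Small p-values and separate groups of such genes in replicates 2 and 3 were partly set by that choice and are given as a description. Changes of single genes are those of replicates 2 and 3 unless stated, with the replicate 1 values beside many of them. The array of gmi1-1 irradiated replicate 3 also stood apart. Its interquartile range was 4.70, and that of the other 11 arrays 5.28 to 5.83. The GAPDH control probe set for the 5' end minus that for the middle read -1.30 on it and -0.47 to -0.17 on the others.

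With all arrays as labelled, 0 of 9889 loci (0%) passed limma's test at an adjusted p under 0.05, with 1306 at an unadjusted p under 0.05. Damage-induced genes had large mean differences even so, with 5.60 for SMR5 (adjusted p = 0.234), while the 3 arrays labelled untreated ran from 2.43 to 9.78. LCR67 (AT1G75830), a gene of the plant defensin family, had the smallest adjusted p (0.158), with a difference of -2.93 (SE 0.42). With limma's array weights, which downweight arrays far from their group, 417 loci were called. Leaving out the library labelled gmi1-1 untreated replicate 1 gave 327 calls, leaving out the one labelled irradiated replicate 1 gave 305, and leaving out wild type irradiated replicate 1 gave 1. No gene list described below held a call as labelled in limma. The median as labelled was 3.71 for damage response markers, 1.61 for touch and early stress genes, -1.27 for G2 and M phase, -0.97 for S phase and -0.58 for root hair genes, beside -0.23 over all loci.

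With replicates 2 and 3 only, 750 of 9889 loci (7.58%) changed, of which 243 rose (2.46%) and 507 fell (5.13%). Counts of calls in the gene lists below are best read against these shares. The rises were the larger changes: 46 rises and 8 falls reached 4 on the log2 scale, a 16-fold change, while 242 rises and 482 falls reached 1. The median over all loci was -0.345, so that the bulk of loci was lower on the irradiated arrays, and each change below is best read against that value. Median centring brought it to -0.08 with 350 rises and 268 falls, and quantile normalization to -0.02 with 389 rises and 290 falls, so the excess of falls turned with the scaling. Of the 750 calls, 523 of the 746 still tested remained with quantile normalization and 509 of 745 with median centring. All 243 rises and 507 falls had both irradiated arrays on one side of both untreated arrays, as did 10% of all tested loci above and 46.8% below. With all 3 pairs as labelled, this held for 46 of the 243 rises and 197 of the 507 falls, against 1.64% above and 10.6% below over all loci.

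The balance of rises and falls rested on single arrays. The count was 219 (133 rose) without gmi1-1 untreated replicate 2 and 213 (146 rose) without gmi1-1 untreated replicate 3. Leaving out gmi1-1 irradiated replicate 3 gave 343 (213 rose), while leaving out gmi1-1 irradiated replicate 2 gave 1997 (256 rose). The number of rises thus ran from 133 to 256 and that of falls from 67 to 1741. Replicate 3 had the deeper falls, with a median of -1.81 over the 507 falls against -1.42 in replicate 2, and a median of -0.54 over all loci against -0.14. Each of these settings leaves 1 array in a group, which is then assumed to vary like the others.

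**Figure D1:**
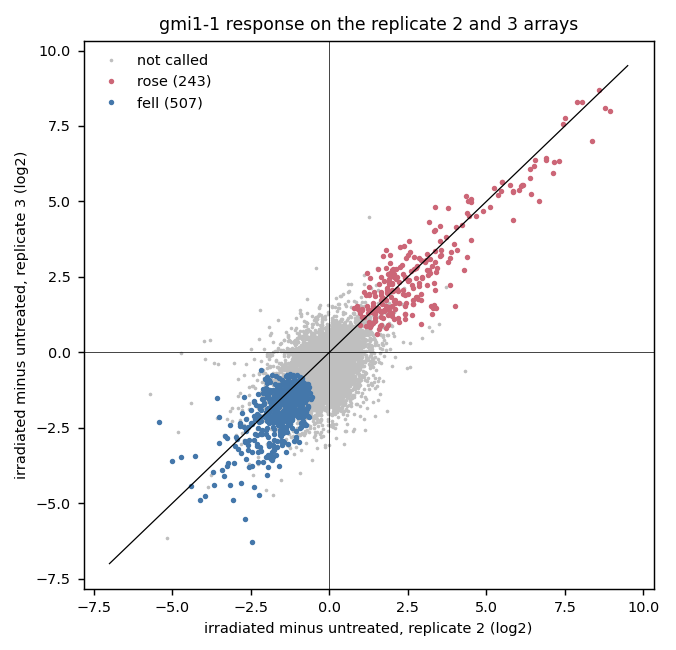
Irradiated minus untreated difference (log2) of each of 9889 loci on the gmi1-1 replicate 2 arrays (horizontal) and the replicate 3 arrays (vertical), with the line of equal difference. The 243 loci that rose lie about the line, while the 507 that fell reach lower in replicate 3, and the Pearson correlation across loci, which are not independent replicates, was 0.682.

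Damage response markers rose nearly as a whole in gmi1-1, with 16 of 18 tested markers called higher and 0 lower, and a median change of 5.75. This list was drawn up with earlier results of these data known, so its direction is not independent evidence. In wild type, where 7.34% of loci were called in the same fit, all 18 rose with a median of 6.28. The 2 that were not called in gmi1-1 were GMI1 itself, at 0.17 (SE 0.34, adjusted p = 0.773), and ATLIG4, a DNA ligase of end joining, at 1.34 (SE 0.42, adjusted p = 0.0854). ATLIG4 had 4.14 and 4.11 on the untreated arrays and 5.17 and 5.77 on the irradiated ones of replicates 2 and 3.

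SMR5, a cell cycle inhibitor, had the largest rise of all tested loci. The values of SMR5 above give a change of 8.64 (SE 0.31, adjusted p = 7.16e-08). Its relative SMR4 (AT5G02220) was at 3.18 and 3.52 untreated and at 9.73 and 9.89 irradiated in replicates 2 and 3, a change of 6.46 (SE 0.29, adjusted p = 5.26e-07). The groups of both genes lay far apart in replicates 2 and 3 and overlapped once replicate 1 was included. SMR5 was itself among the genes for which replicate 1 was left out, so its adjusted p is not independent evidence. The cyclin CYCB1;1 (AT4G37490), known to be induced by damage in contrast to its mitotic relatives, rose by 5.58 (SE 0.27). WEE1, a kinase that holds cyclin-dependent kinases inactive, rose by 2.42 (SE 0.41, adjusted p = 0.0056).

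Repair and chromatin genes rose too, some of them by more than SMR4. BRCA1 (AT4G21070), a repair gene, was at 2.70 and 2.90 untreated and at 11.48 and 10.99 irradiated in replicates 2 and 3, and at 10.54 and 10.56 in the libraries labelled untreated and irradiated replicate 1. XRI1 (AT5G48720), named after its induction by X-rays, was at 4.81 and 4.52 untreated and at 12.84 and 12.83 irradiated, with 11.91 and 11.63 in the replicate 1 libraries. In both genes the replicate 1 libraries lay within 1.3 of the irradiated arrays and more than 6 above the untreated ones. The changes in replicates 2 and 3 were 8.44 (SE 0.29, adjusted p = 7.16e-08) and 8.17 (SE 0.25, adjusted p = 6.96e-08). The poly(ADP-ribose) polymerases PARP2 and PARP1, which mark broken DNA, rose by 7.68 and 5.66. ATRAD17, a loader of the checkpoint clamp, rose by 5.85, and RPA1E, which coats single-stranded DNA, by 4.96. RAD54, a motor protein of homologous recombination, rose by 2.77 (SE 0.66, adjusted p = 0.0315) but unevenly, with 6.45 in irradiated replicate 2 and 4.16 in replicate 3 against 2.45 and 2.63 untreated.

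Supply of DNA precursors rose as well. TK1a (AT3G07800), a thymidine kinase, was at 9.15 and 9.18 untreated and at 13.83 and 13.71 irradiated in replicates 2 and 3, a change of 4.61 (SE 0.22, adjusted p = 6.78e-07). TSO2 and RNR1, subunits of ribonucleotide reductase, rose by 2.79 and 2.27, TSO2 from 11.11 and 11.60 to 13.88 and 14.41. The other tested subunit gene, RNR2A, was at -1.22 (adjusted p = 0.199). The wider machinery of repair did not share these rises: of 11 tested recombination and end joining genes outside the marker list, 1 rose and 0 fell, with a median of -0.22. The riser was AHP2 (AT1G13330), a partner of meiotic strand exchange, by 5.12 (SE 0.45, adjusted p = 7.33e-05). KU70 and KU80, which bind broken ends, were at -0.61 and -0.44, and RAD50 at -0.22. Of 3 tested damage kinases and sensors none was called in limma, with ATM at 0.41 (adjusted p = 0.522) and SOG1 at -0.14 (adjusted p = 0.783).

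TRFL10 (AT5G03780), a TRF-like MYB gene of the marker list, rose by 7.50 (SE 0.37). Among the 15 largest rises of genes with a name, several stand outside the lists above. GEX1 (AT5G55490), known from gametes, rose by 6.53 (SE 0.50) and ROP9 (AT4G28950), a small GTPase, by 6.23 (SE 0.29). SIP4 (AT2G30360), a protein kinase, rose by 5.83 (SE 0.59) and KCS17 (AT4G34510), which elongates very long fatty acids, by 5.84 (SE 0.48). GEX1 was at 0.20 and 0.47 untreated and at 7.33 and 6.40 irradiated, and KCS17 at 1.47 and 1.72 untreated and at 8.16 and 6.72 irradiated. From such levels near background the size of a change is approximate. In GEX1 the replicate 1 libraries took values in between, with 4.96 in the one labelled untreated and 3.76 in the one labelled irradiated.

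**Figure D2:**
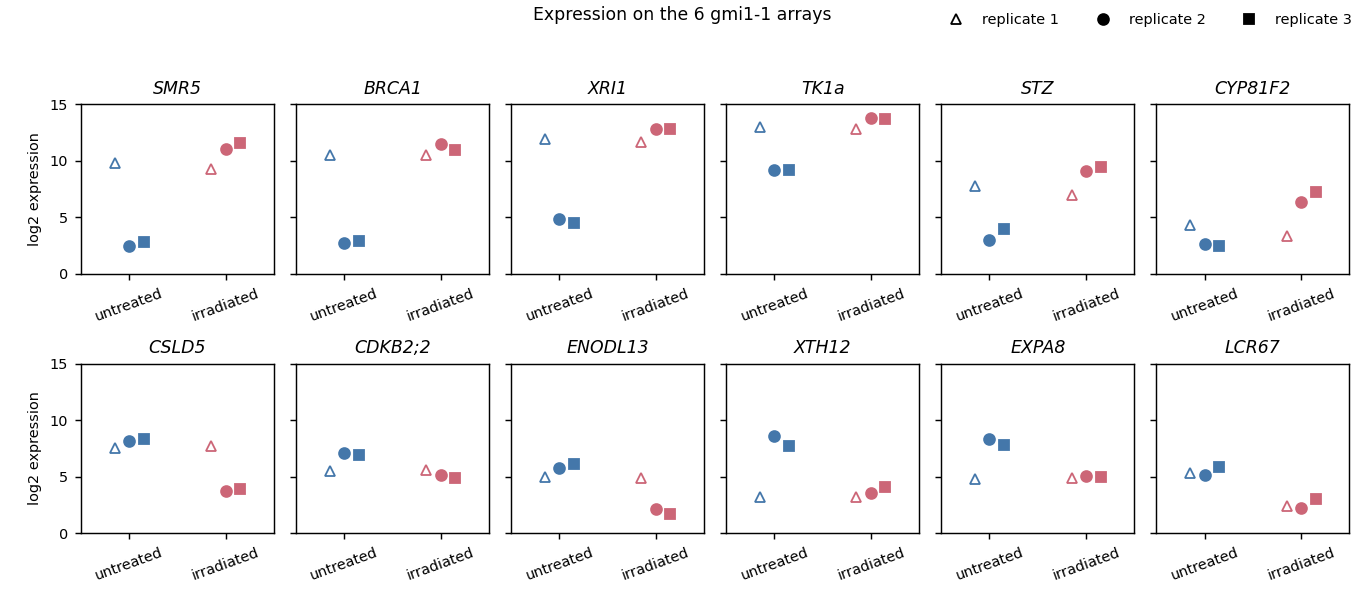
Expression level (log2, vertical) of 12 genes on each of the 6 gmi1-1 arrays, grouped by the label untreated or irradiated, with an open triangle for replicate 1, a circle for replicate 2 and a square for replicate 3. In SMR5, BRCA1, XRI1, TK1a and STZ both triangles lie nearer to the irradiated arrays, in CSLD5 and ENODL13 nearer to the untreated ones, in XTH12 and EXPA8 beside the irradiated ones, and in LCR67 each triangle lies with its own label.

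Genes of division fell in gmi1-1. In the G2 and M phase list 10 of 12 tested genes fell and 0 rose, with a median of -1.98, and in wild type 10 fell too. CDKB2;2 (AT1G20930), a mitotic cyclin-dependent kinase, was at 7.10 and 6.93 untreated and at 5.15 and 4.87 irradiated in replicates 2 and 3, a change of -2.00 (SE 0.23, adjusted p = 0.000529). HIK, a kinesin of the cell plate, was at 5.19 and 5.75 untreated and at 2.97 and 2.63 irradiated, a change of -2.67 (SE 0.42, adjusted p = 0.004). For both genes the groups did not overlap in replicates 2 and 3. The replicate 1 libraries read 5.50 and 5.56 for CDKB2;2, between the groups, and 5.57 and 5.70 for HIK, at the untreated level. The mitotic kinase AUR1 fell by 2.40, and SYP111, the syntaxin of the cell plate, by 3.49 (SE 0.88, adjusted p = 0.039), with 6.77 and 4.39 on the 2 irradiated arrays. MAD2 of the spindle checkpoint was at -1.11 (adjusted p = 0.109).

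Of CDKB2;2, HIK, AUR1 and SYP111, CDKB2;2 kept its call in all 20 alternative settings. The count of falls in the list was 3 without gmi1-1 untreated replicate 2, 1 without gmi1-1 untreated replicate 3, 3 without gmi1-1 irradiated replicate 3, 10 without gmi1-1 irradiated replicate 2 and 6 with array weights. Without gmi1-1 untreated replicate 3 HIK had an adjusted p of 0.0526, AUR1 0.0983 and SYP111 0.191. AUR1 had 0.0877 without gmi1-1 irradiated replicate 3. SYP111 had 0.276 in that setting, 0.175 without gmi1-1 untreated replicate 2, and 0.0513, 0.0548 and 0.0528 without wild type irradiated replicate 2, untreated replicate 2 and untreated replicate 3. The median stayed between -2.44 and -1.68 in all of these settings.

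The deepest called fall among genes with a name belonged to CSLD5 (AT1G02730), a cellulose synthase-like gene of the growing cell plate, which was at 8.12 and 8.34 untreated and at 3.71 and 3.92 irradiated in replicates 2 and 3. The change was -4.42 (SE 0.44, adjusted p = 0.000183). The libraries labelled untreated and irradiated replicate 1 had 7.57 and 7.74, close to the untreated arrays, although SMR5 and BRCA1 stood high in them. CMR1 (AT3G14190), a protector of centromeric cohesion, fell by 3.66 (SE 0.32, adjusted p = 7.45e-05), from 7.17 and 7.80 to 3.74 and 3.91, with 5.98 and 6.22 in the replicate 1 libraries.

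Genes of replication fell as well. Of 11 tested genes of S phase 6 fell and 1 rose (TK1a, above), with a median of -1.49, and in wild type 6 fell too. MCM2, MCM3, MCM4, PRL and CDT1A fell in both genotypes. MCM5 fell in gmi1-1 and was at -0.71 in wild type (adjusted p = 0.228). MCM3 (AT5G46280), a subunit of the replicative helicase, was at 6.89 and 7.06 untreated and at 5.08 and 4.74 irradiated, a change of -2.06 (SE 0.32, adjusted p = 0.0037). PRL, another subunit of that helicase, fell by 2.39 (SE 0.36, adjusted p = 0.0032), and CDT1A, which loads it, by 1.72. PCNA1, the replication clamp, was at -1.06 in gmi1-1 (adjusted p = 0.0564) and fell by 1.12 in wild type (adjusted p = 0.0182). Without gmi1-1 untreated replicate 2, or without gmi1-1 untreated replicate 3, 3 falls remained past the test in each case, and MCM4 had an adjusted p of 0.055 in the latter. Of 18 tested histone genes 4 fell and 1 rose, with a median of -0.67. HTR11 (AT5G65350), of the histone H3 family, rose by 2.46 (SE 0.59, adjusted p = 0.0316), and the 4 falls (HTB1, HIS4, HTB2 and HTA7) lay between -1.31 and -0.89. Histone genes are near-identical copies, so probe sets may share signal. With median centring, array weights, or without gmi1-1 untreated replicate 2, gmi1-1 untreated replicate 3 or gmi1-1 irradiated replicate 3, 0 histone falls were called in limma, and without gmi1-1 irradiated replicate 2 there were 10. Of 10 tested CDK inhibitors SMR5 and SMR4 rose, and ICK5 fell by 1.66 (adjusted p = 0.0372). ICK5 had adjusted p of 0.13, 0.239, 0.0752 and 0.123 without gmi1-1 untreated replicates 2 and 3 and irradiated replicates 2 and 3 in turn, and 0.0578 without wild type untreated replicate 2. For HTR11 the 4 former settings gave 0.118, 0.206, 0.0684 and 0.141.

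Early stress regulators rose beside the damage genes. Of 11 tested touch and early stress genes 7 rose and 0 fell, with a median of 2.78. STZ (AT1G27730), a zinc finger repressor, was at 2.96 and 3.96 untreated and at 9.07 and 9.46 irradiated in replicates 2 and 3, a change of 5.80 (SE 0.36, adjusted p = 4.76e-06). WRKY33, a regulator of camalexin synthesis, rose by 4.78 (SE 0.51), and the ethylene response factors ERF6, ERF104 and ERF5 by 4.12, 3.38 and 1.23. TCH4, a xyloglucan-modifying enzyme known from touch, rose by 1.60 (SE 0.28), and TCH2, a calmodulin-like touch gene, was at 0.01. Whether the untreated plates were moved in the same way is not stated, so handling and irradiation cannot be told apart. RHL41 (AT5G59820), a zinc finger gene, rose by 2.78, and its replicate 1 values of 5.79 and 5.07 lay at the untreated level of 5.26 and 5.59, unlike those of STZ at 7.80 and 6.96. TCH4 lost its call without gmi1-1 untreated replicate 2 (adjusted p = 0.0991), where the list held 5 rises.

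Among transcription factor families, 5 of 20 tested WRKY genes rose and 1 fell, and 4 of 20 tested NAC genes rose and 1 fell. Over all loci 2.46% rose and 5.13% fell, so 1 fall in 20 is near the share over all loci. WRKY25 rose by 5.57 (SE 0.36), WRKY46 by 2.94, WRKY48 by 2.57 and WRKY23 by 1.27 (adjusted p = 0.0272), beside WRKY33. NAC103 (AT5G64060), known to act after SOG1, was at 1.98 and 2.01 untreated and at 8.38 and 7.79 irradiated, a change of 6.09 (SE 0.33, adjusted p = 1.5e-06). NAC053 rose by 2.57 (SE 0.31) and NAC046 by 2.42 (SE 0.38). NAC6 (AT5G39610), a regulator of leaf senescence, fell by 2.79 (SE 0.70, adjusted p = 0.0393), but it was also low in wild type untreated replicate 1, at 3.18 against 5.95 and 5.36 in the other two. Neither the WRKY65 nor the NAC6 fall was called with quantile normalization. NAC6 had an adjusted p of 0.228 without gmi1-1 untreated replicate 2, 0.14 without gmi1-1 untreated replicate 3, 0.0775 without gmi1-1 irradiated replicate 2 and 0.173 without gmi1-1 irradiated replicate 3, and 0.0553 and 0.0527 without wild type irradiated replicates 1 and 2. NAC046 (0.053) and WRKY48 (0.0572) missed the threshold without gmi1-1 untreated replicate 3, and WRKY48 (0.055) without gmi1-1 untreated replicate 2. Without gmi1-1 untreated replicate 2, untreated replicate 3, irradiated replicate 2 and irradiated replicate 3 in turn, 3, 3, 7 and 5 WRKY rises and 3, 2, 3 and 3 NAC rises were called.

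Of 8 tested genes of mitochondrial and oxidative stress 3 rose, with a median of 0.66. They were AGC2-1 (AT3G25250), a kinase of oxidative burst signalling, by 5.29 (SE 0.27), the locus AT2G21640 by 3.75 (SE 0.43) and GSTU25, a glutathione transferase, by 1.16 (SE 0.24). AOX1A, the alternative oxidase, was at 0.76 (adjusted p = 0.111). GSTU25 had adjusted p = 0.0856 without gmi1-1 untreated replicate 2, 0.186 without gmi1-1 untreated replicate 3 and 0.0659 without gmi1-1 irradiated replicate 3. Of 8 tested heat shock genes DREB2A, a drought and heat regulator, rose by 1.71 (SE 0.36, adjusted p = 0.0193, and 0.109, 0.144 and 0.13 without gmi1-1 untreated replicate 2, untreated replicate 3 and irradiated replicate 3). HSP101, a disaggregating chaperone, was at 8.24 and 7.96 untreated and at 5.32 and 7.09 irradiated in replicates 2 and 3, and at 4.78 and 4.91 in the replicate 1 libraries. The mean level of the 8 heat shock genes was 5.99 to 6.44 on the 4 replicate 1 arrays of both genotypes, 6.74 in gmi1-1 irradiated replicate 2 and 6.30 in wild type irradiated replicate 2, and 7.48 to 7.73 on the other 6 arrays. Low levels were thus found among untreated and irradiated arrays alike.

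Defence metabolism moved in both directions. Of 7 tested genes of indole glucosinolates and camalexin 3 rose and 3 fell. CYP81F2 (AT5G57220), which modifies indole glucosinolates, was at 2.62 and 2.49 untreated and at 6.40 and 7.27 irradiated, a rise of 4.28 (SE 0.61, adjusted p = 0.0022). MYB51, a regulator of that pathway, rose by 1.83 (adjusted p = 0.0451) and PAD3, which makes camalexin, by 1.18 (adjusted p = 0.0361). CYP79B3, which makes the shared precursor indole acetaldoxime, was at 8.17 and 8.33 untreated and at 5.99 and 5.65 irradiated, a fall of 2.43 (SE 0.34, adjusted p = 0.0019). Its copy CYP79B2 fell by 1.54 and the regulator MYB34 by 1.94. So the genes for the precursor were lower and the gene for a late modification was higher on the irradiated arrays. CYP81F2 and CYP79B3 were the pair called without each of gmi1-1 untreated replicate 2, untreated replicate 3 and irradiated replicate 3, where CYP79B2 had adjusted p = 0.132, 0.236 and 0.106 and MYB34 0.0725, 0.0809 and 0.0763. MYB51 and PAD3 were called in none of these 3 settings, nor without gmi1-1 irradiated replicate 2, where CYP79B2 had 0.075. Without wild type untreated replicates 2 and 3 CYP79B2 had 0.0571 and 0.0561.

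In aliphatic glucosinolate synthesis 4 of 9 tested genes fell and 0 rose. SOT17 (AT1G18590), a sulfotransferase of the last core step, was at 8.09 and 8.46 untreated and at 5.41 and 5.48 irradiated in replicates 2 and 3, a change of -2.83 (SE 0.29, adjusted p = 0.000224). GSTF11, a glutathione transferase assigned to the pathway, fell by 2.88 (SE 0.45), CYP83A1 of the core pathway by 1.35 and BCAT4 of chain elongation by 1.31. MAM1, which extends the methionine chain, was at -0.44 (adjusted p = 0.55). CYP83A1 and BCAT4 lost their calls without gmi1-1 untreated replicate 2 (0.0783 and 0.109), without gmi1-1 untreated replicate 3 (0.329 and 0.184) and without gmi1-1 irradiated replicate 3 (0.149 and 0.123), and CYP83A1 without gmi1-1 irradiated replicate 2 (0.0744), wild type irradiated replicate 3 (0.0513) and wild type untreated replicates 2 and 3 (0.072 and 0.0709). KCS19 (AT5G04530), a ketoacyl-CoA synthase, fell by 3.37 (SE 0.38, adjusted p = 0.000443), while its relative KCS17 rose. GSTU6 fell by 2.65 (SE 0.41) and GSTU22 rose by 1.65 (SE 0.26), so that the 26 tested glutathione transferases held 2 rises and 3 falls. GSTU22 missed the threshold without gmi1-1 untreated replicate 2 (0.0512).

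Some growth genes of root hairs and cell walls fell, but their levels also differed between replicates of the same group. Of 18 tested root hair genes 5 fell and 0 rose in gmi1-1. In wild type 2 fell, but that count includes the replicate 1 arrays, so the 2 counts come from unlike sets of arrays. XTH12 (AT5G57530), a xyloglucan-modifying enzyme, was at 8.58 and 7.69 untreated and at 3.58 and 4.08 irradiated in replicates 2 and 3, a change of -4.30 (SE 0.91, adjusted p = 0.0183). The libraries labelled untreated and irradiated replicate 1 both had 3.23, and wild type untreated replicate 1 had 4.23 against 7.74 and 7.20 in the other two. XTH12 was thus low in untreated replicate 1 of both genotypes. RHS18 (AT5G22410), a root hair gene, was at 8.09 and 7.09 untreated and at 3.81 and 3.67 irradiated in gmi1-1 and at 3.74, 7.10 and 6.59 in untreated wild type. Its change was -3.85 (SE 0.89, adjusted p = 0.0279). The neighbour and close relative of XTH12, XTH13, fell by 4.09 (SE 0.73), and since the pair is similar in sequence its probes may share signal. The mean level of all 18 root hair genes was 7.30 and 6.85 in gmi1-1 untreated replicates 2 and 3, 5.67 and 5.56 in the irradiated ones, 4.74 and 4.58 in the libraries labelled untreated and irradiated replicate 1, and 5.04 in wild type untreated replicate 1. In whole seedlings, fewer root hair cells and less RNA per cell cannot be told apart, and the part of such differences in the list's falls was not tested. Without gmi1-1 untreated replicate 2, or without gmi1-1 irradiated replicate 3, 0 root hair falls were called in limma. Without gmi1-1 untreated replicate 3 there was 1, and without gmi1-1 irradiated replicate 2 there were 2. XTH12 had adjusted p = 0.144, 0.0747, 0.0519 and 0.104 without gmi1-1 untreated replicates 2 and 3 and irradiated replicates 2 and 3 in turn, and RHS18 0.197, 0.0914, 0.055 and 0.161. XTH13 had 0.0878 without gmi1-1 untreated replicate 2 and 0.0698 without gmi1-1 irradiated replicate 3.

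Some genes of other cell expansion families fell too. Of 14 tested alpha-expansins 3 fell and 0 rose, of 25 tested SAUR genes, auxin-induced promoters of elongation, 8 fell and 0 rose, and of 22 tested XTH genes 6 fell and 3 rose. EXPA8 (AT2G40610), a wall-loosening expansin, was at 8.31 and 7.77 untreated and at 5.06 and 4.93 irradiated in replicates 2 and 3, a change of -3.04 (SE 0.25, adjusted p = 5.11e-05), and it kept its call in all 20 alternatives. The replicate 1 libraries had 4.78 and 4.84, at the irradiated level, while the wild type untreated arrays were at 5.86, 5.85 and 6.12 and did not set replicate 1 apart. SAUR46 fell by 2.60 (SE 0.46, adjusted p = 0.0076) and SAUR76 by 2.72 (SE 0.52, adjusted p = 0.0114). The XTH rises were those of XTR6, TCH4 and XTH28, the last by 1.14. Without gmi1-1 untreated replicate 2, 1 expansin, 0 SAUR and 0 XTH falls were called in limma, and without gmi1-1 untreated replicate 3 1, 0 and 1. The counts were 1, 1 and 0 without gmi1-1 irradiated replicate 3 and 6, 7 and 8 without gmi1-1 irradiated replicate 2. In the order of untreated replicates 2 and 3 and irradiated replicates 2 and 3 of gmi1-1, leaving out the array gave 0, 1, 2 and 3 XTH rises. XTH28 had adjusted p = 0.133 and 0.144 in the untreated pair of settings.

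GA3OX1 (AT1G15550), which makes bioactive gibberellin, was at 7.74 and 7.64 untreated and at 3.78 and 2.88 irradiated in replicates 2 and 3, with 5.78 and 5.43 in the replicate 1 libraries. It fell by 4.36 (SE 0.40, adjusted p = 9.56e-05) in gmi1-1 and by 2.08 (adjusted p = 0.0027) in wild type. GASA6, a gibberellin-regulated peptide gene, fell by 1.59 (SE 0.29, adjusted p = 0.0094), and these were the 2 falls among 10 tested gibberellin genes. GASA6 had adjusted p = 0.0974, 0.0654 and 0.0659 without gmi1-1 untreated replicate 2, untreated replicate 3 and irradiated replicate 3. The receptor genes GID1A, GID1B and GID1C were at -1.22, 0.02 and -0.66 with adjusted p of 0.13, 0.983 and 0.249.

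Early nodulin-like genes, which encode cell surface proteins, showed another arrangement of the replicate 1 libraries. Of 10 tested members 3 fell. ENODL13 (AT5G25090) was at 5.80 and 6.09 untreated and at 2.14 and 1.68 irradiated in replicates 2 and 3, a change of -4.04 (SE 0.36, adjusted p = 8.28e-05). Here the libraries labelled untreated and irradiated replicate 1 had 4.96 and 4.89, nearer to the untreated level. ENODL15 (AT4G31840) fell by 4.38 (SE 1.10, adjusted p = 0.039) but stood at 6.78 and 3.35 on its 2 irradiated arrays, and without gmi1-1 irradiated replicate 3 its adjusted p was 0.272. It was 0.161 and 0.203 without gmi1-1 untreated replicates 2 and 3, and 0.0551, 0.054 and 0.0534 without wild type irradiated replicate 2, untreated replicate 2 and untreated replicate 3. The third fall, of ENODL14, had adjusted p = 0.119, 0.147 and 0.187 without gmi1-1 untreated replicate 2, untreated replicate 3 and irradiated replicate 3. In each of these 3 settings 1 fall of the list was called, and 5 were called without gmi1-1 irradiated replicate 2.

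The called loci therefore fell into sets by where the replicate 1 libraries stood. On a scale from 0, the mean untreated level of gmi1-1 replicates 2 and 3, to 1, their mean irradiated level, the 243 rises had a median of 0.666 in untreated replicate 1 of gmi1-1, as labelled, and 0.539 in irradiated replicate 1. It was -0.021 in wild type untreated replicate 1 and 0.936 in wild type irradiated replicate 1. For the 507 falls the medians were 0.448, 0.433, 0.228 and 0.771 in the same order. All 16 damage markers that rose were past 0.5 in both gmi1-1 replicate 1 libraries, and 0 of them in wild type untreated replicate 1. Of the 10 falls of G2 and M phase, 2 were past 0.5 in the library labelled untreated, 1 in the one labelled irradiated and 0 in wild type untreated replicate 1. Of the 5 root hair falls, 5 were past it in all 3 of these libraries. The replicate 1 libraries of gmi1-1 thus combined high damage markers with most of the called G2 and M phase falls nearer to the untreated level. The S phase falls differed from the untreated level by -1.03 and -0.51 in the libraries labelled untreated and irradiated replicate 1, against -1.84 and -2.17 in irradiated replicates 2 and 3. Both replicate 1 libraries shared low root hair genes with untreated wild type of the same number. Since the scale was set by the same arrays that chose the loci, these positions are a description.

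**Figure D3:**
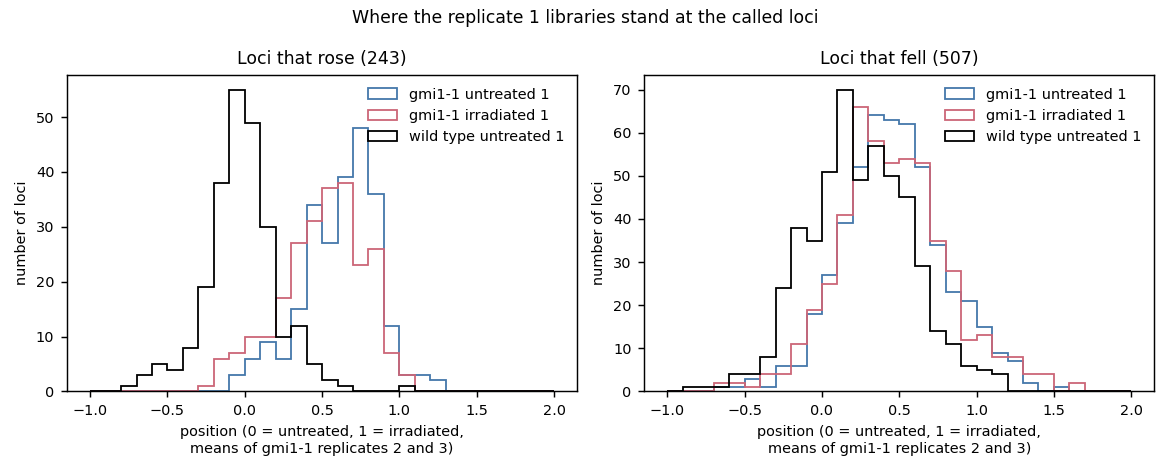
Number of called loci (vertical) by the position of 3 replicate 1 libraries on a scale from 0, the mean of gmi1-1 untreated replicates 2 and 3, to 1, the mean of gmi1-1 irradiated replicates 2 and 3, for the 243 loci that rose (left) and the 507 that fell (right), with values beyond the axis put in the end bins. For the rises both gmi1-1 libraries (blue untreated, red irradiated) peak above 0.5 and wild type untreated replicate 1 (black) at 0, whereas for the falls the 3 distributions overlap.

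**Figure D4:**
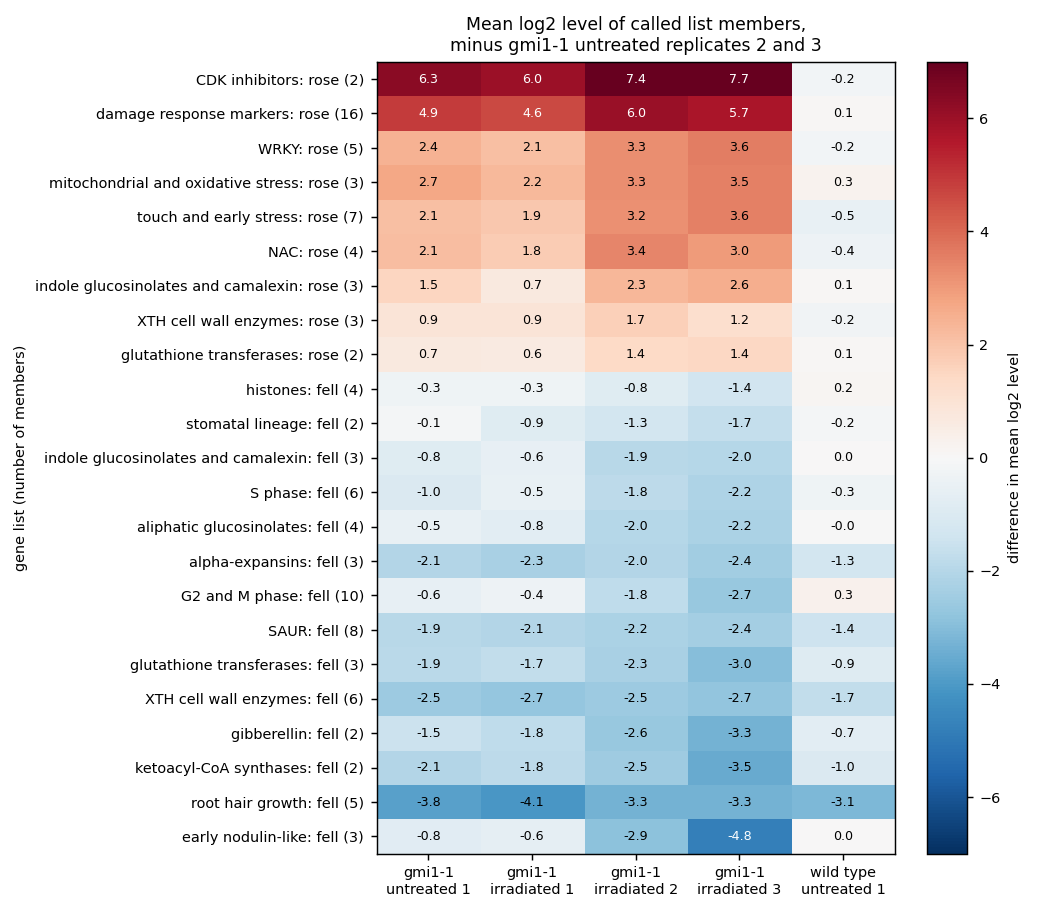
Mean log2 level of the members of each gene list that rose or fell, minus their mean in gmi1-1 untreated replicates 2 and 3, in 5 libraries (columns), with the number of members in brackets, for lists with at least 2 such members. Damage markers are high in the gmi1-1 replicate 1 libraries and not in wild type untreated replicate 1, G2 and M phase genes differ from the untreated level by -0.56 and -0.38 in the former against -1.78 and -2.66 in irradiated replicates 2 and 3, and root hair genes are low in all 5.

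A few genes differed within the replicate 1 pair as well, in the direction of replicates 2 and 3. Of the 243 rises 0 and of the 507 falls 3 differed by 1 or more in this way, while 13 rises and 5 falls differed by as much in the opposite direction. Over all 9889 tested loci 65 were lower and 60 higher by as much in this pair. The 3 of 507 falls are thus near the share over all loci, while the 13 of 243 rises in the opposite direction are above it. The 3 falls were LCR67, AT5G41400 and AT5G50335, the last 2 named after their values were seen. SOT17, MAKR3, ZIP3 and CXE18 below were picked by rule for a large difference in this pair. The clearest was LCR67, at 5.36, 5.15 and 5.86 untreated and at 2.38, 2.22 and 2.99 irradiated, so that all 3 pairs as labelled lay apart. With replicates 2 and 3 its change was -2.90 (SE 0.54, adjusted p = 0.0101, and 0.102 without gmi1-1 untreated replicate 3). In wild type it was at 0.57 (adjusted p = 0.51). Defensin genes have near-identical copies that may share probes. SOT17 was at 7.57 and 6.68 in the replicate 1 pair, and MAKR3, a membrane-associated kinase regulator, at 4.34 and 3.44. The zinc transporter ZIP3 was at 6.63 and 5.81, and the carboxylesterase CXE18 at 5.90 and 5.09. ZIP3, MAKR3 and CXE18 fell by 1.71, 1.82 and 1.67 in replicates 2 and 3, with adjusted p of 0.232, 0.0832 and 0.0965 without gmi1-1 untreated replicate 2, 0.147, 0.115 and 0.0693 without gmi1-1 untreated replicate 3, and 0.249, 0.0848 and 0.0658 without gmi1-1 irradiated replicate 3. ZIP3 also had 0.0507 and 0.0595 without wild type untreated replicates 2 and 3. Among the rises the pair differed in the direction of replicates 2 and 3 by at most 0.62 (HTR11, at 4.18 and 4.80).

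Lists of tissues and of hormone and clock regulators are set beside 2.46% rises and 5.13% falls over all loci. Of 7 tested stomatal lineage genes 2 fell and 0 rose, with a median of -1.13 against -0.345 over all loci. TMM, a receptor-like protein of stomatal spacing, fell by 1.72 (SE 0.32, adjusted p = 0.0103) and EPF2, its peptide ligand, by 1.28 (adjusted p = 0.0337). Neither was called without gmi1-1 untreated replicate 2 (0.11 and 0.254), without gmi1-1 untreated replicate 3 (0.0576 and 0.106) or without gmi1-1 irradiated replicate 3 (0.0674 and 0.125), and EPF2 not without gmi1-1 irradiated replicate 2 (0.0502) or wild type untreated replicate 3 (0.058). Of 15 tested Aux/IAA genes IAA5 rose by 2.81 (0.136, 0.183, 0.0919 and 0.063 as its adjusted p without gmi1-1 untreated replicates 2 and 3 and irradiated replicates 2 and 3). No call was made in limma among 6 tested clock genes and 3 tested JAZ genes. On the 12 arrays the photosystem genes PSAD-1 and PSBO1 lay between 12.74 and 14.28, and the root regulators SCR at 6.69 or more and SHR between 3.72 and 5.52. None of these 4 was called in limma, but without gmi1-1 irradiated replicate 2 SCR and SHR were called lower (adjusted p = 0.0239 and 0.0118). None of 6 measured seed genes and none of 3 flower and pollen genes passed the filter on low values.

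Set beside wild type, the gmi1-1 response of replicates 2 and 3 had the same direction at nearly every called locus. All 243 rises and 503 of the 507 falls had the same sign in wild type, and the other 4 falls (LCR67, CAF1, PAP27 and AT1G73240, the last 3 named after their values were seen) stood at 0.19 to 0.57 in wild type. In wild type 235 of the rises (96.7%) and 247 of the falls (48.7%) were called in the same direction. In turn 57.5% of the 409 wild type rises (4.14% of loci) and 77.9% of the 317 wild type falls (3.21%) were called in gmi1-1, which had 2 arrays a group against 3. The contrasts share no array, but both use the same estimate of spread per locus, so the 2 sets of calls are not independent. Across the 750 called loci, which are not independent replicates, the 2 changes had a Pearson correlation of 0.978. The 750 loci were selected for their gmi1-1 changes, and over all 9889 loci the correlation was 0.892. Among the falls 70 were deeper in gmi1-1 by 1 or more and 0 were deeper in wild type by as much, and the median fall was -1.59 against -1.04. These loci were selected on their gmi1-1 values, so their depth in the 2 genotypes is given as a description. The wild type change also keeps replicate 1, which that of gmi1-1 leaves out. For these falls, wild type replicate 1 had median positions of 0.228 untreated and 0.771 irradiated on the scale from 0 to 1 above. Loci as a whole shifted by a median of -0.345 in gmi1-1 and -0.11 in wild type. The median difference between genotypes was -0.257, and 0.004 with quantile normalization. The part of these differences in the deeper gmi1-1 falls was not tested.

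Tested for itself, the difference between the genotypes passed at 1 of 9889 loci (0.0101%), GMI1, with a value of -8.03 (SE 0.44, adjusted p = 2.93e-05), and the same gene passed with all 12 arrays as labelled. At an unadjusted p under 0.05 there were 263 loci. The next smallest p below wild type belonged to LCR67, with a difference of -3.47 (SE 0.70), and to GA3OX1, with -2.28 (SE 0.52). Above wild type they belonged to FMO GS-OX1, a glucosinolate oxidase, at 1.55 (SE 0.62), BLT at 0.86 (SE 0.36) and MCM10, a replication factor, at 0.83 (SE 0.35). None of these 5 passed the test in limma, with adjusted p near 1. For SMR5 the difference was 0.00 (SE 0.40) and for BRCA1 -0.33 (SE 0.38), and these errors bound what could have been detected. Without gmi1-1 irradiated replicate 2 the count was 2, with the locus AT3G03330 (-2.91, SE 0.27, adjusted p = 0.0208) as the other call, named after its values were seen.

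**Figure D5:**
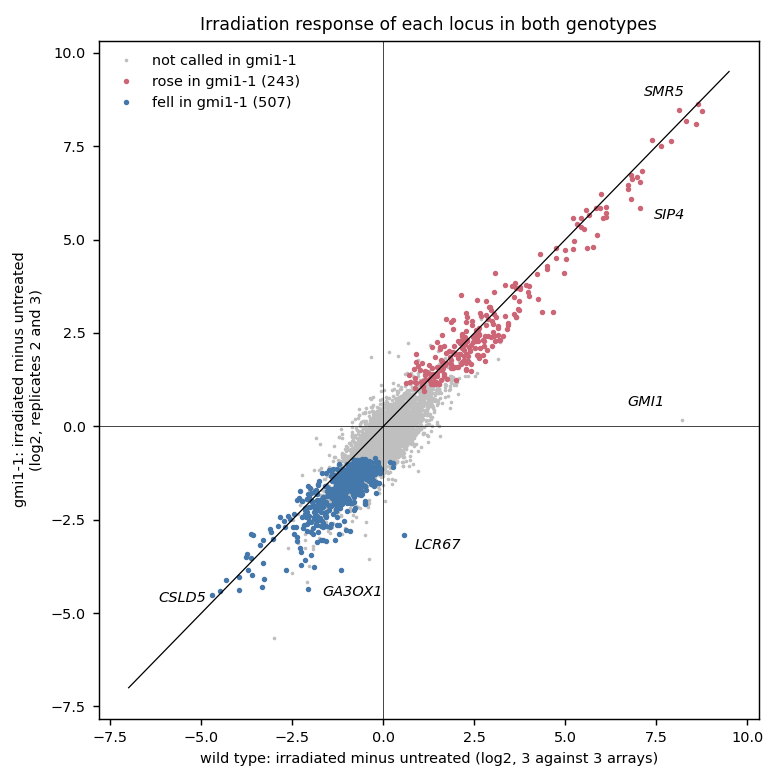
Irradiated minus untreated change (log2) of each of 9889 loci in wild type (horizontal) and in gmi1-1 replicates 2 and 3 (vertical), with the line of equal change. Loci that rose in gmi1-1 (red) lie along the line, those that fell (blue) scatter about and below it, and GMI1 lies far off it at 8.20 in wild type and 0.17 in gmi1-1.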

How the data were processed

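The authors deposited log2 expression values, 1 per locus and array, which came from GCRMA, as the submitters' processing notes say. This method corrects background by probe sequence, normalizes between arrays and summarises probes, and it compresses values near background. The sources used here give no array design, GCRMA version or genome build. Of 16947 loci, 16851 were found by locus tag in a RefSeq table (TAIR10.1), and 7685 have a gene name there. Groups and replicate numbers came from the sample titles.

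Loci at a log2 value of 4 or more on at least 3 of 12 arrays were tested (9889). A mean for each of 4 groups was fitted with limma 3.58.1 (lmFit, eBayes) in R 4.3.3, to 12 arrays as labelled and to 10 without the 2 gmi1-1 libraries numbered 1. The wild type arrays share in the estimate of spread. P-values are two-sided and Benjamini-Hochberg adjusted over all tested loci, with calls at an adjusted p under 0.05. SE is that of the moderated fit, and the number of arrays limits precision. On simulated arrays for gmi1-1 replicates 2 and 3 with 9889 loci, 12% of added changes of 1 and 39% of changes of 2 were called, with 1 false call. The simulation changed 100 loci at each size, with independent noise per locus and no shift of whole arrays. Its rates need not hold for the measured arrays.

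The comparison, its gene lists (30, with 548 measured loci) and named genes were chosen with earlier results of these data known. Named genes were the 15 largest called rises and falls with a gene name and arrays apart, 5 in each direction by the replicate 1 pair, the smallest p-values as labelled and between genotypes, and up to 4 members a list. Of these genes, 1 is not reported here. Alternatives were the replicate block, filters, normalizations, array weights, an intensity trend, gmi1-1 arrays alone, replicates 2 and 3 of every group and leaving out each array.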

Additional observations from a re-analysis of the deposited data

Results flagged for a closer look

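One result met a rule for a closer look, a tested difference between the 2 genotypes under the same contrast. The irradiation effect on GMI1 was 8.03 lower in gmi1-1 replicates 2 and 3 than in wild type (log2 difference -8.03, SE 0.44, limma adjusted p = 2.93e-05), with 3 of 3 irradiated wild type arrays above all gmi1-1 arrays. It is the gene that carries the insertion.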

How the results depend on the processing

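With all replicates as labelled, the count of 0 stayed 0 with the replicate block, both scalings, both filters, the intensity trend and gmi1-1 arrays alone. It was 417 with array weights and 0 to 327 when each array was left out, the high values coming without the library labelled gmi1-1 untreated replicate 1 (327) or irradiated replicate 1 (305).

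With replicates 2 and 3, the 750 calls became 1216 (304 rose, 912 fell) with the replicate block, 377 with array weights, and 402 with quantile normalization without gmi1-1 irradiated replicate 3, a setting chosen after seeing the data. Leaving out each array gave 213 to 1997. The lowest came without gmi1-1 untreated replicate 3 and the highest without gmi1-1 irradiated replicate 2, and the cause was not tested. Among 91 called genes examined, 28 of 38 rises and 12 of 53 falls kept their call in all 20 alternatives, and none changed direction. The difference between genotypes gave 1 locus, or 1 to 2 when each array was left out.

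The replicate numbers were not treated as pairs in the main fit. Same-numbered untreated and irradiated gmi1-1 arrays deviated from their group means together with correlations of 0.14, 0.05 and 0.06. The doubted replicate 1 libraries enter those means and so all of these correlations. They therefore cannot decide whether the remaining gmi1-1 replicates were paired. In wild type the correlations were 0.49, 0.07 and 0.53. Between the genotypes, same-numbered arrays deviated together with 0.67, 0.60 and 0.54 untreated and 0.41, 0.17 and 0.26 irradiated. The replicate block kept 746 of the 750 calls. Limits: 2 arrays a group, GCRMA values near background, and 1 mutant line.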
